A study of Peromyscus maniculatus with 6 samples.

Results

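The genes described are those of the cell division cycle, from the cyclins and inhibitors of the G1 phase through DNA replication to mitosis. Of 48 symbols listed for them, 41 matched a gene name in the table of 24281 genes, ignoring case. They were 12 of 14 G1 cyclins, cyclin-dependent kinases (CDKs), CDK inhibitors and their targets, 10 of 12 replication genes and 19 of 22 mitosis genes. Ccnd3, Cdk4, Pcna, Rrm2, Ccna2, Ccnb1 and Mad2l1 were not analysed here. The list was drawn up by symbol and not by how the genes moved, although earlier results of these data were known when it was made.

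The cells were primary fibroblasts grown from ear punches of 4-week-old deer mice of the BW stock (Peromyscus maniculatus). Each of 3 animals, BW35770, BW35772 and BW35773, gave 1 tunicamycin library and 1 control library. Cells were seeded at 300000 per well, grown for 24 h and exposed to tunicamycin for 5 h before RNA was taken, at a labelled concentration of 5 mg per mL that could not be checked here. The sources used here do not name the vehicle of the control wells, and each animal stands for 1 culture.

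A cell enters the cycle when D-type cyclins activate CDK4 and CDK6, and E-type cyclins CDK2. These kinases phosphorylate the retinoblastoma protein, which frees E2F factors to switch on replication genes, and a later wave of transcription then supplies the mitotic genes. CDK inhibitors of the CIP/KIP family (p21, p27 and p57) and of the INK4 family (such as p18) oppose the kinases. In mouse fibroblasts tunicamycin is known to stop cells in G1, through the kinase PERK and reduced translation of cyclin D1. The counts here measure RNA, and protein was not measured.

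Tunicamycin libraries held 40698179 to 49352126 counts on genes and control libraries 37852385 to 43367273. Over all genes, 348 of 13503 tested were called (edgeR quasi-likelihood test, Benjamini-Hochberg adjusted p under 0.05), with 1.78% of tested genes higher and 0.792% lower. All 41 members passed the filter on low counts, with 31 to 70224 counts in a library. Of 15 fibroblast markers 14 were named in the table and all 14 were tested, with a summed level of 18327 to 25452 CPM (read counts scaled to library size with TMM factors) in tunicamycin and 18082 to 26350 CPM in control libraries. Cartilage markers were strongly expressed, with a summed level of 2110 to 8981 CPM in tunicamycin and 1896 to 8424 CPM in control libraries. Most defining markers of the leukocyte, epithelial, endothelial, muscle, Schwann cell and melanocyte lists were at or near 0. Over all 6 libraries the leukocyte gene Ptprc had 1 count, the epithelial genes Epcam and Krt5 had 2 and 4, and the endothelial gene Cdh5 had 3. Exceptions among these lists included Cd68, S100b, Acta1 and Krt14, with 28564, 21471, 4651 and 2219 counts. The filter on low counts passed 3 of 8 leukocyte, 2 of 8 epithelial, 1 of 7 endothelial and 2 of 8 muscle genes. It also passed 4 of 9 Schwann cell and melanocyte genes.

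After 5 h of tunicamycin 0 of the 41 cell cycle genes rose and 0 fell in edgeR without pairing, against 2.58% of all tested genes called. At an unadjusted p under 0.05 there were 3 members, or 7.32%, against 15.5% of all tested genes (8.88% higher and 6.64% lower), and these were Cdkn1a and Cdkn2c (lower) and Mcm7 (higher). The median log2 fold change was -0.01 over the members and -0.01 over all tested genes. Members ran from -0.75 to 0.69 on that scale. In a fit that pairs libraries by animal (the replicate block) 2 members fell and 0 rose, against 2.4% of all tested genes lower and 3.07% higher (5.47% in all). Both were CDK inhibitors, Cdkn1a and Cdkn2c. DESeq2 called these 2 lower and Mcm7 higher, against 3.36% of the genes to which it gave an adjusted p called lower and 5.67% higher (9.03% in all). By limma-voom 0 members were called, against 1.61% of all tested genes higher and 0.77% lower (2.38% in all). Counted in either direction, the shares of members called, 4.88% with the replicate block and 7.32% by DESeq2, were near those of all genes. They rest on 2 and 3 genes. Counted lower alone, the 2 members are 4.88%, above the 2.4% and 3.36% of all genes.

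**Figure D1:**
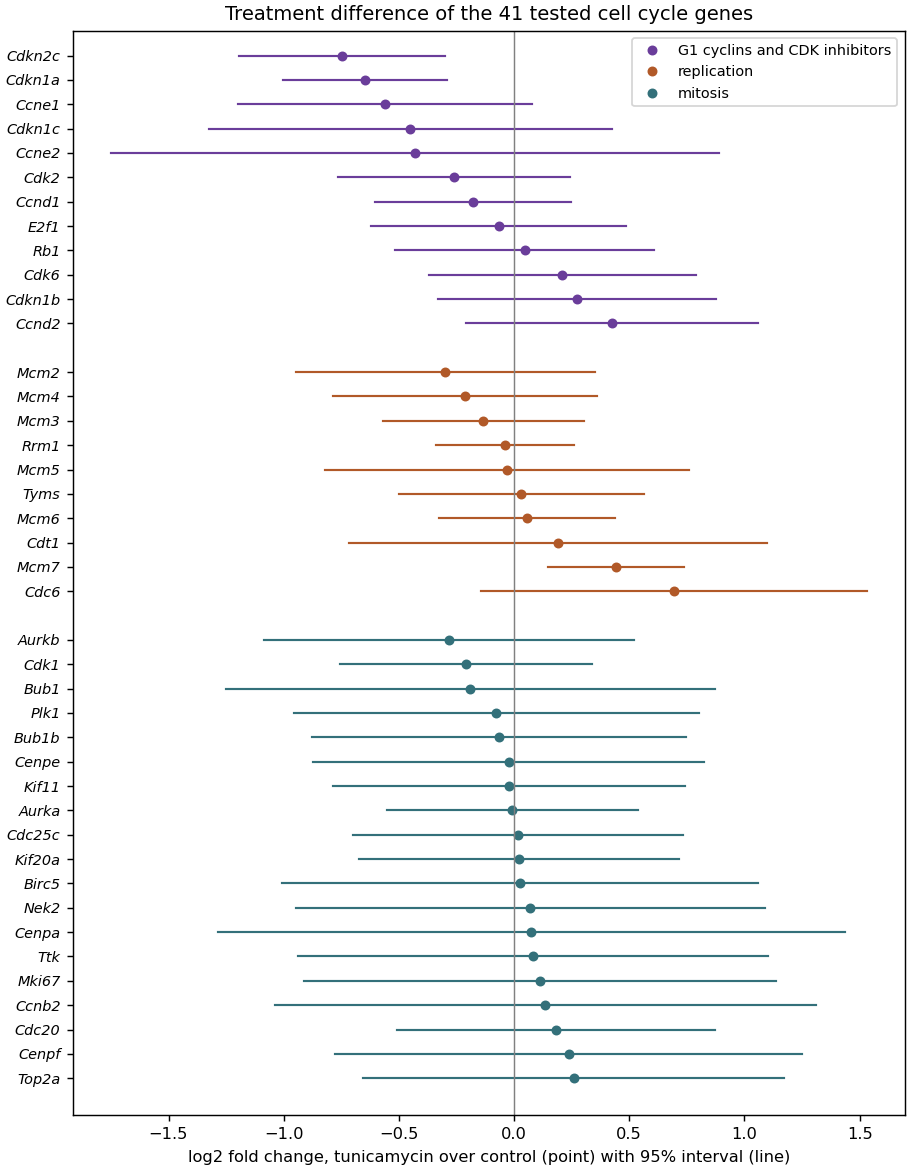
Log2 fold change of tunicamycin over control (x axis) for each of the 41 tested genes (y axis), grouped by role, with the 95% interval of the unpaired edgeR fit, not adjusted for the number of genes. Intervals of Cdkn2c and Cdkn1a lie below 0 and that of Mcm7 above it, and those of the mitosis genes all span 0.

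Width of the intervals limits what an uncalled gene shows. The 95% interval of the log2 fold change lay inside -1 to 1 for 23 of 41 members, against 63.8% of all tested genes. By role these were 6 of 12 G1 genes, 8 of 10 replication genes and 9 of 19 mitosis genes. For the other members a 2-fold difference in at least 1 direction lay within the interval.

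Levels per length of transcript (TPM, counts per kilobase of exon scaled to the same total in every library) placed Cdkn1a first of the 41, at a mean of 899 TPM in tunicamycin and 1322 TPM in control libraries. Ccnd1 came next at 383 TPM in tunicamycin and 401 TPM in control libraries. Cdkn1b followed at 73.7 TPM in tunicamycin and 56.1 TPM in control libraries. All other members were under 50 TPM in both groups, and Cenpa, the histone variant of the centromere, was lowest over both groups together at 2.00 TPM in tunicamycin and 1.76 TPM in control libraries.

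Cdkn1a encodes p21, the CDK inhibitor best known as a target of p53 (ENSPEMG00000016513, scaffold KI615507.1, bases 2116169 to 2123036, minus strand, 3 exons). It stood at 917, 979 and 1164 CPM in the tunicamycin libraries of animals BW35770, BW35772 and BW35773, against 1424, 1615 and 1757 CPM in their controls. Every tunicamycin library was below every control library. The mean was 1020.2 ± 128.5 CPM with tunicamycin and 1599 ± 167 CPM in controls (SD, n = 3 each). The log2 fold change was -0.65 ± 0.15 (SE; edgeR adjusted p = 0.0832), and with the replicate block the gene fell (edgeR adjusted p = 0.0218). Differences within the pairs were -0.63, -0.72 and -0.59 on the log2 scale, so the animals gave closely similar sizes.

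Cdkn2c encodes p18-INK4c, an inhibitor of CDK4 and CDK6 (ENSPEMG00000021080, scaffold KI615410.1, bases 3175735 to 3181612, minus strand, 3 exons). Tunicamycin libraries had 10.7, 16.1 and 16.6 CPM and controls 23.7, 24.1 and 25.0 CPM, in the same order of animals. The groups did not overlap, and the controls lay much closer together than the treated libraries. Its log2 fold change was -0.75 ± 0.19 (SE; edgeR adjusted p = 0.106), and with the replicate block it fell (edgeR adjusted p = 0.0441). The block call of both inhibitors was kept without animal BW35772 or BW35773 and lost without animal BW35770 (edgeR adjusted p = 0.358 for Cdkn1a and 0.48 for Cdkn2c). Each of these fits held 2 pairs. Their log2 fold changes without BW35770 were -0.66 and -0.59. Over all genes 74 rose and 37 fell in that fit, against 497 and 451 without BW35772 and 806 and 826 without BW35773.

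The other inhibitors were not called and went opposite ways. Cdkn1b, which encodes p27, had 118.5, 84.8 and 73.9 CPM in tunicamycin libraries, against 103.4, 70.1 and 56.1 CPM in controls. It was higher with tunicamycin in all 3 pairs, by 0.20, 0.27 and 0.40 on the log2 scale, but the animals differed by more than the treatment and the groups overlapped (log2 fold change 0.27 ± 0.26, SE; edgeR adjusted p = 0.723, and 0.192 with the replicate block). Cdkn1c, which encodes p57, had 5.65, 2.97 and 3.52 CPM in tunicamycin libraries, against 8.20, 4.08 and 4.28 CPM in controls. It was lower in all 3 pairs, and the groups overlapped (log2 fold change -0.45 ± 0.38, SE; edgeR adjusted p = 0.669).

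Among the D-type cyclins, Ccnd1, the main cyclin D of fibroblasts, had 270.6, 402.3 and 361.5 CPM in tunicamycin libraries, against 327.4, 433.4 and 408.3 CPM in controls. It was lower in all 3 pairs by small steps of -0.27, -0.11 and -0.18 on the log2 CPM scale, with overlapping groups. In TPM the pair of BW35772 went the other way, at 502 with tunicamycin and 448 in its control. The log2 fold change of Ccnd1 was -0.18 with a 95% interval from -0.60 to 0.25 (edgeR adjusted p = 0.753), so the interval leaves out a 2-fold loss of this transcript. Ccnd2 had 147.8, 180.0 and 83.3 CPM in tunicamycin libraries, against 109.4, 113.4 and 83.3 CPM in controls. The difference came from animals BW35770 and BW35772, at 0.43 and 0.67 on the log2 scale, while animal BW35773 showed 0.00. Ccnd2 was not called (log2 fold change 0.43 ± 0.27, SE; edgeR adjusted p = 0.541).

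Ccne1, which encodes cyclin E1, the partner of CDK2 at entry into S phase, had 6.81, 11.6 and 11.0 CPM in tunicamycin libraries, against 10.4, 16.6 and 16.3 CPM in controls. Its within-pair differences of -0.60, -0.52 and -0.57 were alike in the 3 animals, but the groups overlapped. The log2 fold change was -0.56 ± 0.27 (SE; edgeR adjusted p = 0.39, and 0.086 with the replicate block). Ccne2 had differences of -1.13, 0.03 and -0.75, and Cdk2, the kinase of both E cyclins, of -0.30, -0.15 and -0.35. Cdk6, Rb1 (the retinoblastoma protein) and E2f1 (an activating E2F) had log2 fold changes of 0.21, 0.05 and -0.07, and none was called. Genes on the opposite strand overlap Rb1, 1 of them with 8871 counts against 2463 for Rb1.

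**Figure D2:**
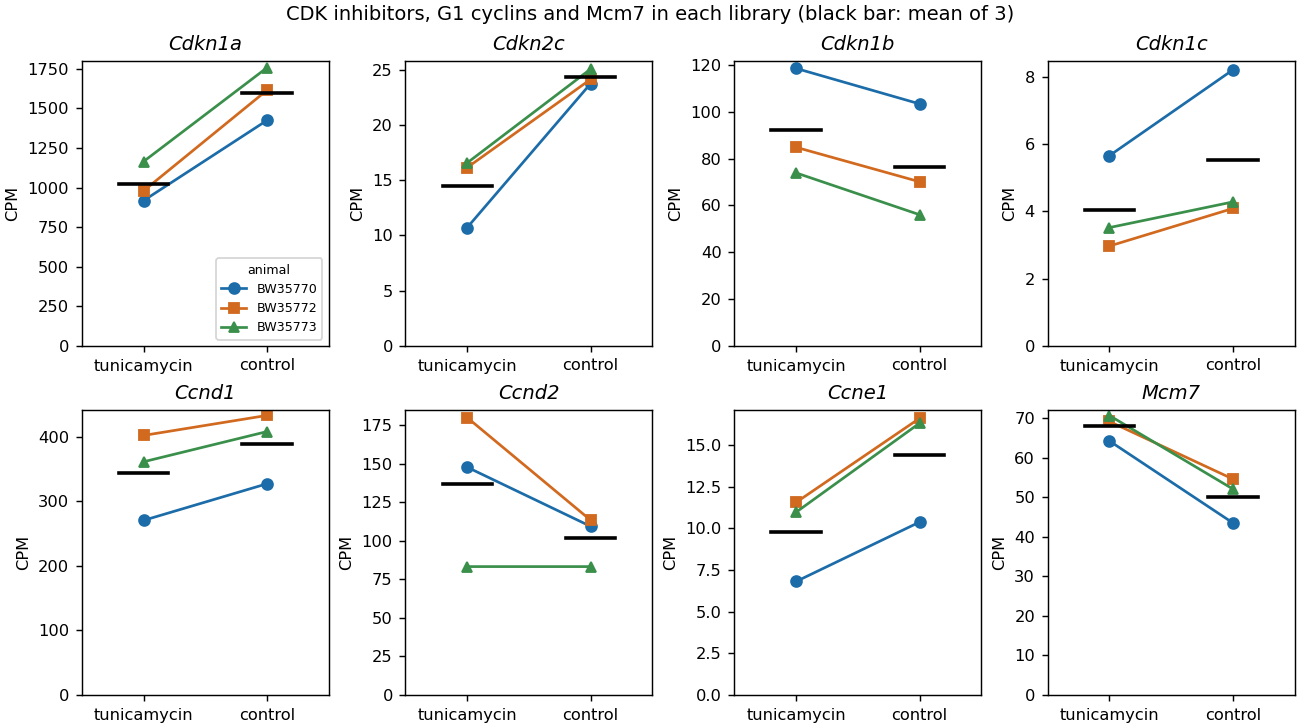
CPM (y axis, from 0) of 4 CDK inhibitors, 3 G1 cyclins and Mcm7 in each library, tunicamycin left and control right. Lines join the libraries of 1 animal and black bars are means of 3. Cdkn1a and Cdkn2c are lower and Mcm7 higher in every tunicamycin library than in any control, and the other 5 genes overlap.

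Taking the 12 G1 genes as a list, 6 were lower and 2 higher in all 3 pairs, so 66.7% kept 1 sign, against 42.4% of all tested genes, with Ccnd2 counted as higher although its difference in BW35773 was 0.00. These signs are those of TMM-scaled CPM. In TPM, Ccnd1 and Cdk2 were higher with tunicamycin in BW35772, and Ccnd2 was lower in BW35773. Groups did not overlap for 2 of them (16.7%), both lower, against 9.98% of all tested genes lower and 12.3% higher (22.3% in all). Their median log2 fold change was -0.22. The summed level of the 12 genes was 1527, 1755 and 1780 CPM in tunicamycin libraries and 2063, 2352 and 2429 CPM in controls, and Cdkn1a made up most of that sum in every library. Without Cdkn1a the other 11 genes summed to 610.0, 776.5 and 616.1 CPM in tunicamycin libraries and to 638.8, 737.2 and 672.1 CPM in controls, higher with tunicamycin in BW35772 and lower in the other animals.

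Of the 10 replication genes 0 rose and 0 fell in edgeR, with or without the replicate block, against 2.58% of all tested genes called without it and 5.47% with it. Such shares leave less than 1 call for a list of 10, and 1 gene of the list, Mcm7, passed an unadjusted p of 0.05. The median log2 fold change was 0.00. The MCM proteins form the helicase that is loaded at origins of replication as a ring of 6 different subunits. Mcm2, Mcm3, Mcm4, Mcm5 and Mcm6 had log2 fold changes of -0.30, -0.13, -0.21, -0.03 and 0.06.

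Mcm7, the remaining subunit, had the smallest p-value of the replication genes (ENSPEMG00000004759, scaffold KI615328.1, bases 124962 to 132626, minus strand, 16 exons). It had 64.2, 69.1 and 70.6 CPM in tunicamycin libraries, against 43.5, 54.6 and 52.1 CPM in controls. The groups did not overlap, and the differences within pairs were 0.56, 0.34 and 0.44 on the log2 scale. Its log2 fold change was 0.44 ± 0.13 (SE; edgeR adjusted p = 0.138, and 0.0757 with the replicate block), and DESeq2 called it higher (adjusted p = 0.0386). The difference between Mcm7 and the other subunits was not tested. The table lists 3 unnamed genes on the same strand within Mcm7, with 5, 2 and 1 counts over all libraries, against 15243 for Mcm7.

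Cdc6, which loads the helicase with Cdt1, had 4.41, 7.79 and 5.76 CPM in tunicamycin libraries, against 2.29, 3.62 and 5.20 CPM in controls. It was higher in all 3 pairs, at 0.93, 1.10 and 0.15 on the log2 scale, with overlapping groups and no call (log2 fold change 0.69 ± 0.36, SE; edgeR adjusted p = 0.422). Cdt1 differed by 0.42, 0.31 and -0.03. Mcm2, among the 3 smallest p-values of the list, had 16.6, 27.4 and 19.1 CPM in tunicamycin libraries and 16.9, 30.2 and 30.4 CPM in controls, with differences of -0.03, -0.14 and -0.67. The genes of nucleotide supply, Rrm1 (the large subunit of ribonucleotide reductase) and Tyms (thymidylate synthase), had log2 fold changes of -0.04 and 0.03. The interval for Rrm1, the tightest of these, ran from -0.34 to 0.26.

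Of the 19 mitosis genes 0 rose and 0 fell in edgeR, with or without the replicate block, against 2.58% of all tested genes called without it and 5.47% with it, which is near the background for a list of 19. At an unadjusted p under 0.05 there were 0, against 15.5% of all tested genes. Their groups overlapped for all 19, against 22.3% of all tested genes without overlap, and the median log2 fold change was 0.02. Only 3 of 19 (15.8%) kept 1 sign in all 3 pairs, against 42.4% of all tested genes. Top2a, the topoisomerase that untangles chromosomes, had 35.6, 79.6 and 42.1 CPM in tunicamycin libraries, against 23.8, 57.1 and 50.7 CPM in controls. Its differences were 0.58, 0.48 and -0.27, and the log2 fold change was 0.26 ± 0.39 (SE; edgeR adjusted p = 0.851). Mki67, the proliferation antigen Ki-67, had 20.3, 44.9 and 23.5 CPM in tunicamycin libraries, against 12.5, 36.0 and 33.6 CPM in controls. Like Top2a it was higher with tunicamycin in animals BW35770 and BW35772 and lower in BW35773.

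Cdk1, the kinase that drives entry into mitosis, had 21.7, 34.6 and 38.0 CPM in tunicamycin libraries, against 29.8, 43.0 and 36.1 CPM in controls (log2 fold change -0.21 ± 0.23, SE; edgeR adjusted p = 0.775). Ccnb2, a B-type cyclin that partners it, had 5.10, 10.4 and 12.1 CPM in tunicamycin libraries, against 3.17, 11.5 and 10.4 CPM in controls. Aurkb, a kinase of the chromosomal passenger complex, had 3.92, 7.96 and 6.58 CPM in tunicamycin libraries, against 4.82, 9.15 and 8.48 CPM in controls, and was lower in all 3 pairs by 0.20 to 0.36 in size (log2 fold change -0.28 ± 0.35, SE; edgeR adjusted p = 0.8). In TPM, Aurkb of BW35772 went the other way, at 14.15 with tunicamycin and 13.45 in its control. Survivin (Birc5), of the same complex, had a log2 fold change of 0.03.

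The spindle checkpoint genes Bub1, Bub1b and Ttk and their target Cdc20 had log2 fold changes of -0.19, -0.07, 0.08 and 0.18. Aurka, Plk1 and Nek2, kinases of the spindle poles, and Cdc25c, the phosphatase that activates CDK1, had -0.01, -0.08, 0.07 and 0.02. The motor proteins Kif11, Kif20a and Cenpe had -0.02, 0.02 and -0.02, and the kinetochore genes Cenpf and Cenpa 0.24 and 0.07. None of these 13 genes was called in edgeR, and the interval of Cenpa, the lowest of them, ran from -1.29 to 1.44.

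**Figure D3:**
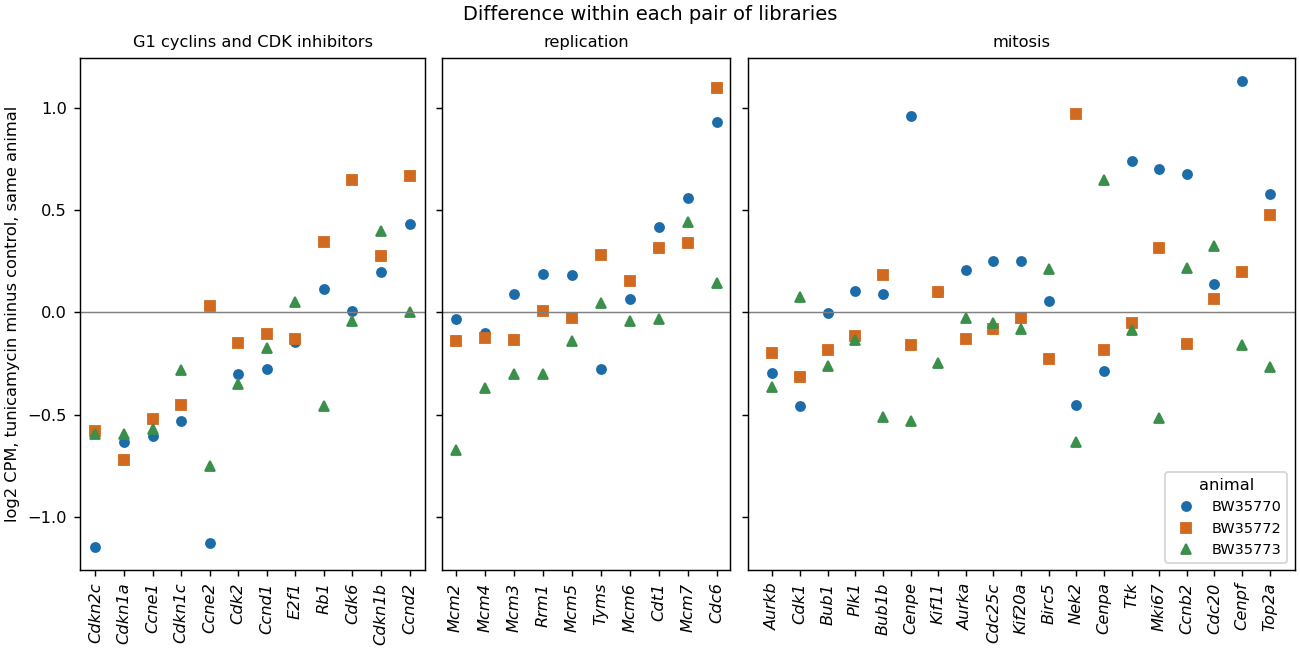
Difference in log2 CPM between the tunicamycin and the control library of the same animal (y axis) for each gene (x axis), by role, with 1 symbol per animal. Cdkn1a, Ccne1 and Mcm7 have tight symbols away from 0, whereas for many mitosis genes animal BW35770 lies above 0 and BW35773 below it.

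The direction of the mitosis genes differed by animal. Tunicamycin exceeded control for 14 of 19 mitosis genes in animal BW35770, for 7 in BW35772 and for 5 in BW35773. Over all 13503 tested genes these counts were 6283, 6430 and 6669. Median differences of the mitosis genes were 0.14, -0.08 and -0.13 on the log2 scale. Medians over all tested genes were -0.03, -0.03 and -0.0045 in the same animals. All these values use TMM-scaled CPM, and those of the mitosis genes in BW35772 depend on that scaling. In TPM most mitosis genes of BW35772 were higher with tunicamycin, such as Plk1 at 11.9 against 10.7. Summed TPM of the mitosis genes was 116, 242 and 166 in tunicamycin libraries and 102, 204 and 185 in controls, in the same order of animals. Each animal gave 1 pair, so a difference in response between animals could not be tested. Without animal BW35773 and with the replicate block, 2 pairs remained. Of 41 members 4 were then called higher (Ccnd2, Cdc6, Mcm7 and Top2a) and 2 lower (Cdkn1a and Cdkn2c). Of all 13634 genes tested in that fit, 806 were called higher and 826 lower.

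Animal BW35770 had lower levels of most cell cycle transcripts in both its libraries. It was singled out after the data were seen, and genes measured in the same libraries are not independent replicates. Both libraries of animal BW35770 lay below the other 4 libraries for 17 of 19 mitosis genes, 6 of 10 replication genes and 6 of 12 G1 genes, against 8.92% of all tested genes. The 2 mitosis genes without that order were Nek2 and Cenpe. Both libraries of BW35770 lay above the other 4 for 2 members, the inhibitors Cdkn1b and Cdkn1c, against 10.5% of all tested genes. The summed level of the mitosis genes was 184, 347 and 263 CPM in tunicamycin libraries of BW35770, BW35772 and BW35773, and 151, 324 and 290 CPM in their controls. Replication genes summed to 329, 425 and 400 CPM with tunicamycin and to 289, 405 and 434 CPM in controls. In these bulk samples fewer cycling cells and less of each transcript per cycling cell cannot be told apart.

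**Figure D4:**
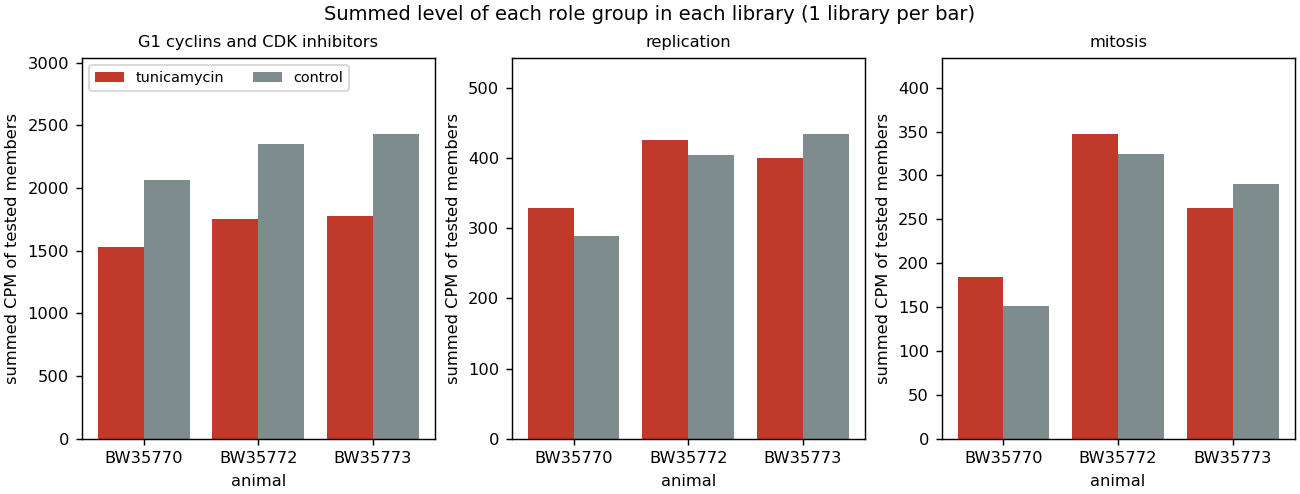
Summed CPM (y axis, from 0) of the tested genes of each role in each library, by animal (x axis), tunicamycin red and control grey, 1 library per bar. The G1 sum, most of it Cdkn1a, is lower with tunicamycin in all 3 animals (1527 to 1780 against 2063 to 2429 CPM), but not without Cdkn1a in BW35772, and mitosis genes are lowest in both libraries of BW35770.

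Animals were compared through the animal term of the blocked fit, a test chosen after the data were seen, with the 2 libraries of an animal as its only replicates. This term was called for 4 of 41 members (9.76%), against 3.53% of all tested genes. They were Cdkn1b, Mcm5, Ccnb2 and Plk1, a kinase with many mitotic roles (edgeR adjusted p = 0.0463, 0.0212, 0.0452 and 0.0368). Set against BW35772, animal BW35770 had 8 members lower (19.5%) and 0 higher, against 2.09% of all tested genes lower and 1.83% higher. These were Ccne2, Mcm5, Mki67, Top2a, Ccnb2, Cdc20, Plk1 and Kif20a. Set against BW35773 it had 3 members lower (Mcm5, Ccnb2 and Bub1) and 1 higher (Cdkn1b), against 1.3% of all tested genes lower and 1.58% higher. Between BW35772 and BW35773 0 of 41 members were called in edgeR, against 0.148% of all tested genes higher and 0.163% lower.

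The treatment's log2 fold change had a signed median of 0.02 over the mitosis genes and of -0.01 over all tested genes. Regardless of sign, its size had medians of 0.08 and 0.23. Between animals, the signed median log2 difference of the mitosis genes was -0.97 for BW35770 minus BW35772, and -0.77 for BW35770 minus BW35773. The difference was negative for 19 of 19 genes both times, against 47.1% and 50.5% of all tested genes. Over all tested genes the signed medians between animals were 0.02 and -0.0035. As all 19 mitosis genes were negative, their sizes between animals had medians of 0.97 and 0.77, beside 0.08 for the treatment. Over all tested genes, sizes between animals were not computed, so 0.23 has no counterpart there. Mcm5 had 38.0 and 33.5 CPM in the tunicamycin and control libraries of BW35770, 69.3 and 70.7 CPM in those of BW35772, and 67.6 and 74.4 CPM in those of BW35773. Cdkn1b, the inhibitor p27, ran the other way and was highest in BW35770, as given above. The counts between animals rest on single libraries. The count of 8 against BW35772 was 0 without either library of BW35770, 3 without the tunicamycin library of BW35772, and 20 and 21 without the tunicamycin or the control library of BW35773. The count of 3 against BW35773 was 0 without either library of BW35770, and 8 and 10 without the tunicamycin or the control library of BW35772. The count of 4 members with a called animal term was 0 without either library of BW35770, 10 without the tunicamycin library of BW35773, and 15 and 19 without the controls of BW35772 and BW35773. Shares of all tested genes were not computed for these leave-out fits, so the counts cannot be read as particular to the members.

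Markers of cartilage also varied by animal. Of 8 named chondrocyte markers 7 were tested and 5 had a called animal term, against 3.53% of all tested genes. Their summed level was 2110, 8981 and 6195 CPM in tunicamycin libraries of BW35770, BW35772 and BW35773, and 1896, 8424 and 7240 CPM in their controls. Fibroblast markers went both ways, although their sum was lowest in both libraries of BW35770. Of 14 markers 8 had a called animal term, with 6 lower and 2 higher in BW35770 than in BW35772, and 4 lower and 1 higher than in BW35773. Of all tested genes 2.09% were lower and 1.83% higher against BW35772, and 1.3% lower and 1.58% higher against BW35773. Summed immune markers, mostly Cd68, were highest in BW35770, at 155, 70.7 and 70.5 CPM in tunicamycin libraries of BW35770, BW35772 and BW35773, and 177, 124 and 88.3 CPM in their controls. The part of such differences in the cell cycle levels was not tested.

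Genes outside the members were taken from 7 further lists of the cell cycle, drawn up by symbol with earlier results of these data known. Among 21 tested checkpoint genes and antiproliferative brakes 3 rose and 0 fell, against 1.78% of all tested genes higher and 0.792% lower. With the replicate block 5 rose and 0 fell, against 3.07% higher and 2.4% lower. Those that rose include Mdm4, which inhibits p53 and is not itself a brake. The median log2 fold change was 0.26, against -0.01 over all tested genes. Gadd45g, a growth arrest gene of the GADD45 stress family, had 63.4, 67.6 and 89.2 CPM in tunicamycin libraries, against 24.1, 32.8 and 34.0 CPM in controls, and rose by 1.28 ± 0.19 on the log2 scale (SE; edgeR adjusted p = 0.0188). Btg1, an antiproliferative cofactor of mRNA decay, had 302.6, 213.9 and 276.9 CPM in tunicamycin libraries, against 152.8, 131.4 and 103.3 CPM in controls, and rose by 1.03 ± 0.19 (SE; edgeR adjusted p = 0.0365). Plk2, a stress-induced polo-like kinase, had 254.2, 273.1 and 253.2 CPM in tunicamycin libraries, against 154.9, 155.1 and 170.9 CPM in controls, and rose by 0.70 ± 0.11 (SE; edgeR adjusted p = 0.0208).

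For all 3 genes the groups did not overlap. Mdm4, an inhibitor of p53, and Plk3, another stress-induced polo-like kinase, were the genes added by the block (log2 fold change 1.29 ± 0.33 and 0.99 ± 0.21, SE; edgeR adjusted p = 0.11 and 0.0566 without it, 0.0398 and 0.0303 with it). Trp53, which encodes p53, stood at 0.28 on that scale (edgeR adjusted p = 0.338). The calls for Gadd45g, Btg1 and Plk2 were lost without any 1 of the 3 controls. Adjusted p then ran from 0.0588 to 0.0931 for Gadd45g, from 0.0674 to 0.154 for Btg1 and from 0.0987 to 0.136 for Plk2. The call for Plk2 was also lost without the tunicamycin library of BW35770 (0.0713), and that for Btg1 without that of BW35770 or BW35773 (0.117 and 0.0552). With the replicate block and without animal BW35770 the adjusted p of Gadd45g, Btg1 and Plk2 was 0.0543, 0.119 and 0.25.

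**Figure D5:**
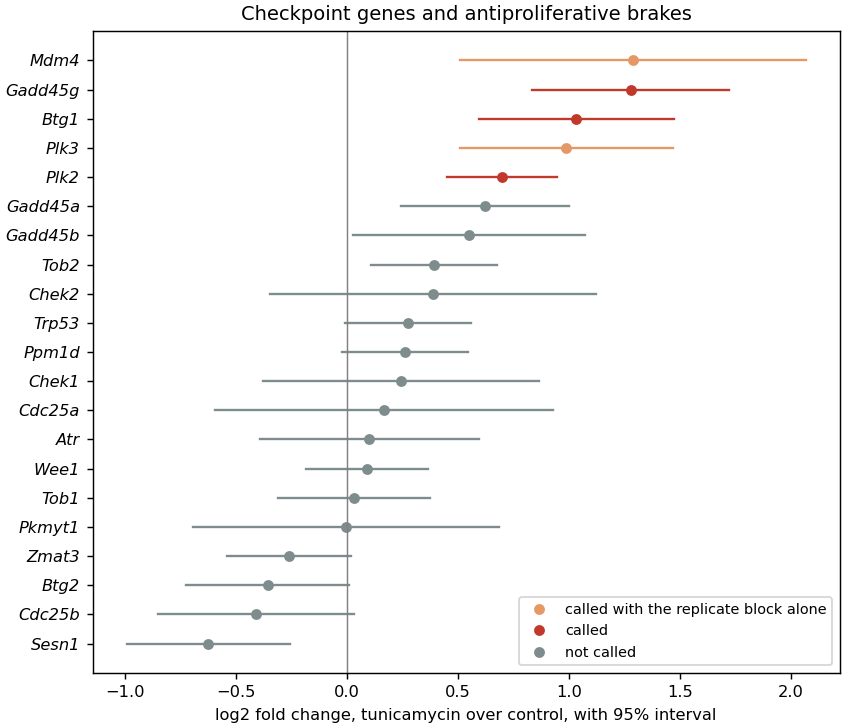
Log2 fold change of tunicamycin over control (x axis) with its 95% interval, not adjusted for the number of genes, for the 21 tested checkpoint genes and brakes (y axis). Gadd45g, Btg1 and Plk2 (red) were called, Mdm4 (an inhibitor of p53, not itself a brake) and Plk3 (orange) with the replicate block alone, and the others (grey) were not called.

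In the remaining 6 lists 0 genes were called in edgeR. At an unadjusted p under 0.05, 15.5% of all tested genes passed (8.88% higher and 6.64% lower), and the counts of each list are read against these shares. Of 56 further mitosis genes 1 was higher and 2 lower by that measure, with a median log2 fold change of 0.00. The smallest p-values were those of Ska2, a kinetochore gene, at -0.77 ± 0.26, and Kif18a, a kinesin, at 0.76 ± 0.28 (SE; edgeR adjusted p = 0.208 and 0.25). Of 45 genes of origin firing and the replication fork 0 were higher and 1 lower by that measure, with a median of -0.02. That gene was Rpa3, a subunit of the single-strand binding protein, with 6.48, 8.19 and 11.8 CPM in tunicamycin libraries and 15.5, 20.7 and 18.0 CPM in controls. Its log2 fold change was -1.03 ± 0.25 (SE; edgeR adjusted p = 0.0912), and it fell with the replicate block (0.0249). Timeless, a fork protection gene and the next by p, was at 0.46 (edgeR adjusted p = 0.427).

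Of 20 other cyclins and CDKs 5 were higher and 1 lower at an unadjusted p under 0.05, against 8.88% and 6.64% of all tested genes. Ccng2, an unconventional cyclin linked to growth arrest, had 21.9, 24.6 and 18.3 CPM in tunicamycin libraries and 39.0, 35.1 and 32.6 CPM in controls, and fell with the replicate block (log2 fold change -0.72 ± 0.15, SE; edgeR adjusted p = 0.0624 without the block and 0.0266 with it). Cdk10 rose with the block (log2 fold change 0.72; edgeR adjusted p = 0.109 without it and 0.027 with it). Cdk8, a kinase of the Mediator complex, was at 0.49 (edgeR adjusted p = 0.0795 without the block and 0.0626 with it). The 15 E2F and DREAM complex genes, which repress or activate cycle promoters, had 3 higher and 1 lower by the unadjusted measure, with E2f6 at -0.37 and Lin9 at 0.47 on the log2 scale (edgeR adjusted p = 0.143 and 0.229).

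Of 4 other CDK inhibitors and retinoblastoma relatives 1 was lower by the unadjusted measure. It was Cdkn2d, which encodes p19-INK4d, with 3.72, 4.08 and 6.28 CPM in tunicamycin libraries, against 7.35, 7.02 and 7.58 CPM in controls (log2 fold change -0.64 ± 0.25, SE; edgeR adjusted p = 0.28). As for the related Cdkn2c, no tunicamycin library reached the lowest control. Rbl1, the retinoblastoma relative p107, was at 0.31 (edgeR adjusted p = 0.629). The 22 genes of cyclin and inhibitor turnover had 1 higher and 1 lower by the unadjusted measure, Fbxo31 at 0.84, a ubiquitin ligase subunit, and Cdc26 at -0.36, a part of the anaphase-promoting complex (edgeR adjusted p = 0.308 and 0.161).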

How the data were processed

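The deposited table holds the authors' raw read counts, as whole numbers for each gene and library, beside each gene's exon length. STAR 2.6.1, SAMtools 1.6 and featureCounts (Subread) are named in the submitters' processing notes. The sources used here do not name the genome build, and coordinates are printed as the deposited table gives them. The library kit keeps strand, per the labels' protocols, and the table is titled as strand-specific; the counting setting is not stated. Libraries held 37852385 to 49352126 counts, and 6252 of 24281 genes have no name. No 2 libraries were copies (chi-square per degree of freedom 33.6 to 310.1).

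Counts were tested with edgeR 4.0.16 in R 4.3.3 (filterByExpr set to 10 counts in a library and 15 in total, TMM factors, quasi-likelihood test, two-sided, Benjamini-Hochberg adjustment over 13503 genes, threshold 0.05). The treatment fits were tested on simulated data that held no animal effect, and the tests between animals were not run on them. CPM values are TMM-scaled, the SE is the log2 fold change divided by the square root of F, and differences within pairs use log2 CPM with a prior count of 2. TPM values were computed from the deposited counts and exon lengths. Animal numbers in the titles pair the libraries. Deviations from group means correlated at 0.66, 0.41 and 0.22 within the pairs, across genes that are not independent replicates, so values of the replicate block stand beside calls or counts that it changes. Replicates are 3 animals with 1 culture each.

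The members, gene lists and tests were chosen with earlier results of these data known. Values of every library are given for members called with or without the block, for the 3 smallest p-values of each role, and for all CDK inhibitors and D-type cyclins. Of each further list, the called genes are named (at most 6) or the 2 with the smallest p. Any other gene given in full was picked with its values in view. Results were recomputed with DESeq2 1.42.0 and limma-voom (limma 3.58.1), RLE and upper-quartile factors, no filter or a stricter one, the block, and each library or animal left out. A planned search of promoter motifs was not run, as no promoter sequence was used here.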

Additional observations from a re-analysis of the deposited data

How the results depend on the processing

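Members called higher and lower numbered 0 and 0 under RLE or upper-quartile factors, limma-voom, either filter and with each library left out. They numbered 0 and 2 with the replicate block, 1 and 2 in DESeq2, 4 and 2 with the replicate block without animal BW35773, 0 and 2 without BW35772, and 0 and 0 without BW35770. Genes called over the whole table numbered 241 higher and 107 lower, 415 and 324 with the replicate block, and 676 and 401 in DESeq2. With the block they were 74 and 37 without BW35770, 497 and 451 without BW35772, and 806 and 826 without BW35773. With each library left out they ranged from 46 to 313 higher and from 15 to 251 lower. Members with a called animal term numbered 4, then 11 with no filter, 1 with the stricter filter, and 0 to 19 with each library left out. Shares of all tested genes with a called animal term were not computed for these alternatives. With each library left out, the log2 fold change of Top2a ran from -0.17 to 0.53, below 0 without the tunicamycin library of BW35772 or the control of BW35770 (-0.04). That of Cdk1 ran from -0.35 to 0.00045, above 0 without the tunicamycin library of BW35770. Cdkn1a, Cdkn2c and Mcm7 kept their sign in all 16 alternatives and were called in 4, 4 and 2 of them. Log2 fold changes of Cdkn1a ran from -0.73 to -0.57 and its adjusted p from 0.00205 to 0.358. The cause of these shifts was not tested. Treatment fits that leave out 1 library had no block. Intervals were wide at low and at moderate levels alike, as for Cenpa (-1.29 to 1.44) and Mki67 (-0.91 to 1.13).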
